A study of Mus musculus with 18 samples.

Results

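Astrocytes were followed through 10 genes that mark the cell type and carry out its transport work: Aldh1l1, Sox9 and Ndrg2 as identity genes, Slc1a2, Slc1a3 and Glul for glutamate, Gja1 and Gjb6 for gap junctions, and Aqp4 and Kcnj10 for water and potassium. They were taken by symbol from a table of 18683 genes, and all 10 were found in it and passed the filter on low values in every comparison. The table came from bulk RNA sequencing of prefrontal cortex and hippocampus of male mice, and its values are FPKM, fragments scaled by gene length and library size. Each tissue had 3 groups of 3 libraries: wildtype C57BL/6J mice injected with PBS, 5xFAD mice injected with PBS, and 5xFAD mice injected with extracellular vesicles (EV) from human breast milk. All mice, wildtypes included, received 10 intravenous injections, 3 days apart, between 5 and 6 months of age, and were perfused with PBS after behavioural tests. As background, 5xFAD mice carry a mutated human APP transgene that a Thy1 promoter drives in neurons, and no group here was wildtype with EV. Nothing in the labels says that the 3 libraries of a group are separate mice, so the p-values here gauge the scatter among these samples alone, and that scatter may be technical.

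Astrocytes clear glutamate from synapses through 2 sodium-driven transporters, turn it into glutamine, take up the potassium that active neurons release, and move water at the endfeet that they place on blood vessels. They share these loads with each other through gap junctions made of connexins. In mouse models of amyloid disease, astrocytes near plaques become reactive and raise cytoskeletal genes such as Gfap, while the genes of their resting transport work are the ones described here.

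The depth was enough to read each of these genes in each library. Between 26437852 and 36901744 reads fell on the genes of the table in a library, as recovered from the steps of the FPKM values. The fewest were in EV hippocampus library 3. Sox9, the lowest of the 10, still had at least 714 reads in every library, and Slc1a2, the one with most reads, had 71504 to 107025. All libraries held astrocyte transcripts: the 10 genes together summed to between 1304 and 1796 FPKM, with the lowest and the highest sum both in the EV hippocampus group. Transcripts of the choroid plexus, which makes cerebrospinal fluid inside the ventricles, set some libraries apart. Their summed FPKM over 9 markers was 4.86 to 9.68 in wildtype cortex, 5.59 to 8.88 in 5xFAD PBS cortex and 6.93 to 866 in EV cortex. In hippocampus it was 35.7 to 169 in wildtypes, 2628 to 8930 in 5xFAD PBS and 188 to 5722 in EV libraries. Results on Aqp4 and on the tissue differences are given below with these values beside them.

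The connexin genes Gja1 and Gjb6 encode connexin 43 and connexin 30, the subunits of astrocyte gap junctions, and they are both among the genes that were higher in hippocampus than in cortex of 5xFAD PBS mice. Their promoter windows, from 250 bases before to 50 bases after the start, are shown because both genes were called in the same direction there, and allow the sequence around their starts to be compared. The windows are RefSeq sequences on GRCm38.p6, 5′ to 3′ on the gene's own strand. The RefSeq promoter table held 8 of the 10 genes, all but Sox9 and Aqp4. Capitals mark matches to any of 4 motifs searched on both strands: ACAAAG and ACAATG (the core that Sox proteins prefer), TATAAA (the TATA box) and TGANTCA (the AP-1 site, where N is any base, added after the Gja1 window had been read). TGANTCA has the same form on both strands and was counted once, and no motif of the 4 contains another. Gja1 lies on the plus strand, at chr10:56377050-56377349, and Gjb6 on the minus strand, at chr14:57133562-57133861.
Gja1: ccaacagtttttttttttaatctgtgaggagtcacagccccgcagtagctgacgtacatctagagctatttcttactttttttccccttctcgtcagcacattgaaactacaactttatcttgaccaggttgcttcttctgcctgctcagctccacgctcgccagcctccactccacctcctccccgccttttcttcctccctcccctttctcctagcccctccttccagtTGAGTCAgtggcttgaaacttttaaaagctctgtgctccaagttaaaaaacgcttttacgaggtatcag
Gjb6: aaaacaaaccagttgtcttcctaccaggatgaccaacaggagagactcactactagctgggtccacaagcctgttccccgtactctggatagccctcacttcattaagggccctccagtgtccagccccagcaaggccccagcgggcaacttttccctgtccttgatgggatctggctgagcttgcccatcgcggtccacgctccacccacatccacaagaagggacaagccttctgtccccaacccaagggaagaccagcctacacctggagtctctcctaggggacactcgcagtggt

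The Gja1 window was 47.7% G and C and the Gjb6 window 57.3%, on either side of the median of 52.7% over the 32851 windows of the table. Gja1 held 1 TGANTCA match, a motif found in 7.81% of all windows, and Gjb6 held none of the 4. The 8 genes with a window had 10 windows, since Ndrg2 has several. Of these 10 windows, ACAAAG matched in 1 (Kcnj10) against 18.7% of all windows, and ACAATG in 0 against 12.6%. TATAAA matched in 2 (Ndrg2 and Slc1a3) against 13.6%. A match describes the letters in a window and is not evidence that a factor binds there.

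The order of the 10 genes by mean FPKM, a scale that allows levels of different genes to be compared per length, was nearly the same in all 6 groups. Glul, which encodes glutamine synthetase, was always the highest, followed by Ndrg2, Slc1a2, Slc1a3, Gja1 and Aqp4, and Sox9 was always the lowest. Places 7 and 8 changed between Gjb6 and Aldh1l1, and Kcnj10 was always the next to last. Between neighbours in this order the libraries overlapped for at most 2 pairs in any group, as for Ndrg2 and Slc1a2 in wildtype cortex or Kcnj10 and Sox9 in 5xFAD PBS hippocampus. Over all 18 libraries the highest level of a gene was 1.45 times (Slc1a3) to 2.67 times (Kcnj10) its lowest.

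**Figure D1:**
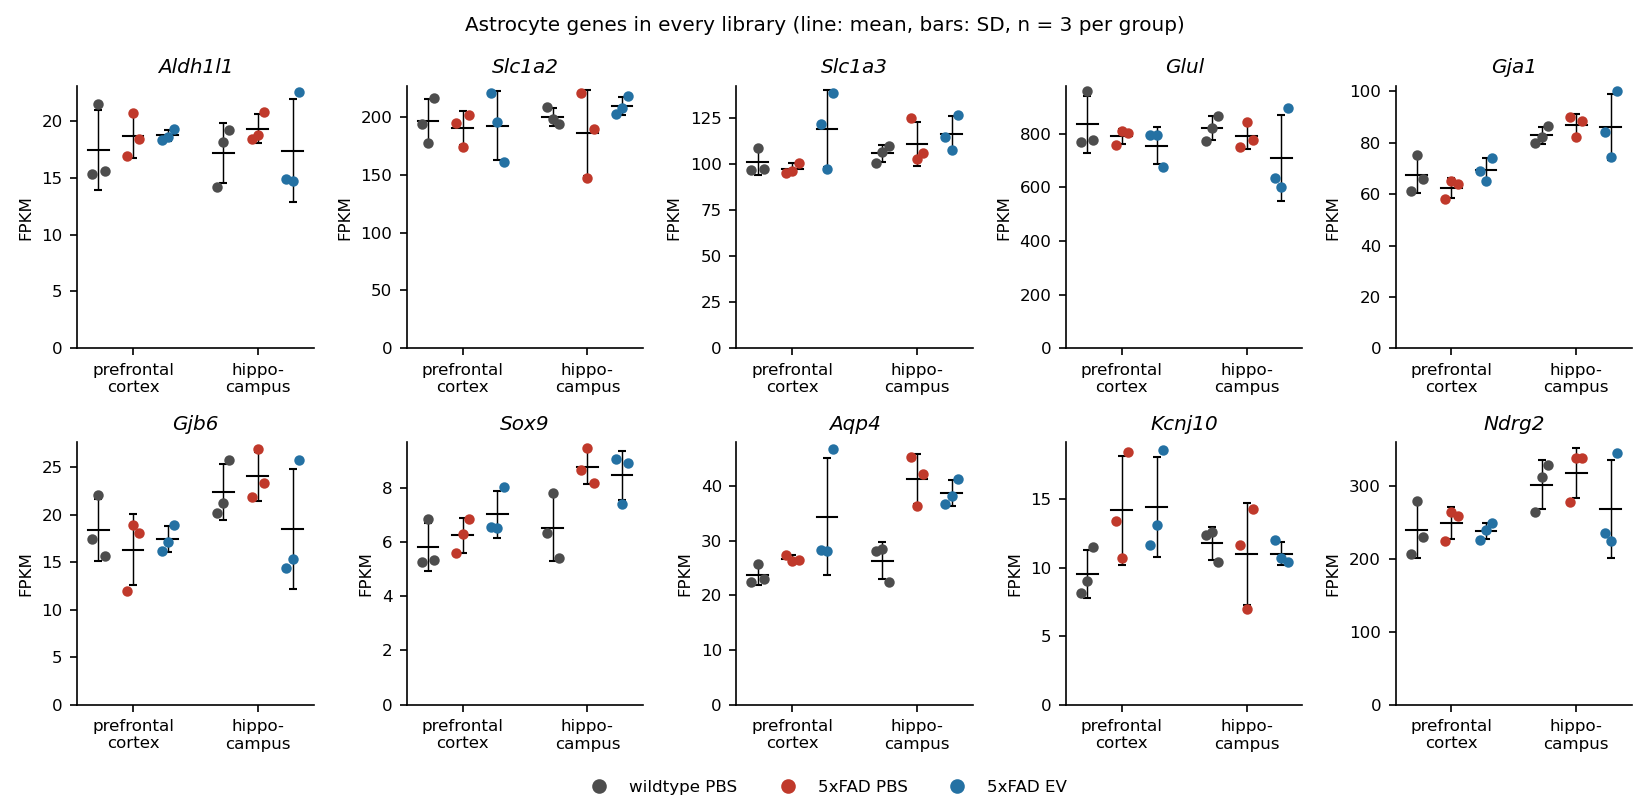
FPKM of each gene in every library (points), with the mean (line) and SD (bars) of the 3 libraries per group, for wildtype PBS, 5xFAD PBS and 5xFAD EV in prefrontal cortex and hippocampus; each panel has its own linear axis from 0. Aqp4 in hippocampus lay between 22.4 and 28.4 in wildtypes and between 36.4 and 45.4 in both 5xFAD groups, while most other panels show groups that overlap.

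Among the identity genes, Aldh1l1, a folate enzyme used as a pan-astrocyte marker, had group means of 17.5 ± 3.51 (wildtype), 18.7 ± 1.91 (5xFAD PBS) and 18.7 ± 0.541 FPKM (EV) in cortex (SD, n = 3 each, as for all means here). In hippocampus they were 17.2 ± 2.67, 19.3 ± 1.29 and 17.4 ± 4.52 FPKM. Aldh1l1 did not pass the test in any comparison, and no neighbouring groups in the order of its 6 means were separated.

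Ndrg2, a cytoplasmic protein abundant in astrocytes, was at 239 ± 37.1, 249 ± 21.8 and 238 ± 11.8 FPKM in wildtype, 5xFAD PBS and EV cortex. In hippocampus it was at 302 ± 33.2, 318 ± 34.7 and 269 ± 67.2 FPKM. The wide EV spread came from values of 235, 225 and 346 FPKM, where the third library was the highest of all 18. Ndrg2 was not called between groups or between tissues.

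Sox9, a transcription factor of the astrocyte lineage, stood in cortex at 5.25, 6.84 and 5.35 FPKM in wildtypes, 5.59, 6.29 and 6.86 in 5xFAD PBS and 6.54, 6.51 and 8.03 in EV libraries. In hippocampus it was at 6.33, 7.80 and 5.4 in wildtypes, 8.68, 9.46 and 8.18 in 5xFAD PBS and 9.06, 7.41 and 8.92 in EV libraries. Each 5xFAD PBS hippocampus library lay above each wildtype one, while the EV libraries overlapped the wildtypes at 7.41 and 7.80. The log2 difference from wildtype in hippocampus was 0.42 (SE 0.13, 95% interval 0.11 to 0.72) for 5xFAD PBS and 0.36 (SE 0.13, 0.06 to 0.67) for EV. Neither passed limma's test over all genes, with adjusted p of 0.131 and 0.3, and both contrasts use the same wildtype libraries.

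The glutamate genes did not pass the test between groups in either tissue. Slc1a2 encodes GLT-1, the main glutamate transporter of the forebrain, and had means of 197 ± 19.6, 191 ± 14.5 and 192 ± 30.1 FPKM in wildtype, 5xFAD PBS and EV cortex. The hippocampal means of Slc1a2 were 201 ± 7.86, 186 ± 37.1 and 210 ± 7.34 FPKM. Its lowest and highest values of all 18 libraries, 147 and 221 FPKM, were both in the 5xFAD PBS hippocampus group.

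Slc1a3, which encodes GLAST, the other astrocyte glutamate transporter, stood at 97.1, 109 and 97.5 FPKM in wildtype cortex, 95.6, 96.4 and 101 in 5xFAD PBS cortex and 122, 97.5 and 139 in EV cortex. EV libraries 1 and 3 were above all 5xFAD PBS libraries and library 2 was within their range. The log2 difference of EV from 5xFAD PBS cortex was 0.28 (SE 0.12, 95% interval 0.02 to 0.53), with an adjusted p of 0.822 in limma. It was 0.16 without EV library 3 and 0.41 without EV library 2. In hippocampus Slc1a3 had means of 106 ± 4.59, 111 ± 12.2 and 117 ± 9.44 FPKM.

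Glul, the enzyme that makes glutamine from the glutamate taken up, had means of 835 ± 107, 791 ± 28.1 and 756 ± 69.2 FPKM in cortex and 821 ± 45.7, 791 ± 49.3 and 710 ± 161 FPKM in hippocampus. In EV hippocampus the values were 634, 601 and 896 FPKM, so that libraries 1 and 2 were below and library 3 above all 6 of the other hippocampus groups' libraries. Compared with 5xFAD PBS, the log2 difference of Glul in EV hippocampus was -0.18 (95% interval -0.52 to 0.17, limma adjusted p = 0.867).

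The gap junction genes were called between tissues in the 5xFAD PBS mice and not in the others. Gja1 came close there, with limma adjusted p of 0.0532 in wildtypes and 0.0502 in EV mice. Gjb6 did not, at 0.403 and 0.92. The tissue difference itself was not called different between 5xFAD PBS mice and wildtypes, or between EV and PBS mice, for either gene. Gja1 stood at 61.3, 75.1 and 65.9 FPKM in wildtype cortex, 58.0, 65.3 and 64.0 in 5xFAD PBS cortex and 69.2, 65.1 and 74.2 in EV cortex. In hippocampus it stood at 79.9, 82.2 and 86.6 in wildtypes, 90.0, 82.1 and 88.4 in 5xFAD PBS and 84.2, 74.3 and 100 in EV libraries. Within each of the 3 treatments, every hippocampal library was above every cortical one.

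Gjb6 stood at 17.4, 22.1 and 15.7 FPKM in wildtype cortex, 12, 18.9 and 18.1 in 5xFAD PBS cortex and 16.2, 17.1 and 18.9 in EV cortex. In hippocampus it stood at 20.2, 21.2 and 25.8 in wildtypes, 21.9, 26.9 and 23.4 in 5xFAD PBS and 14.4, 15.3 and 25.8 in EV libraries. The tissues were apart in the 5xFAD PBS mice and overlapped in wildtypes and EV mice. Neither connexin passed the test between groups within a tissue.

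Aqp4 encodes the water channel of astrocyte endfeet. In cortex it stood at 22.4, 25.7 and 23.0 FPKM in wildtypes, 27.4, 26.3 and 26.4 in 5xFAD PBS and 28.3, 28.1 and 46.8 in EV libraries. In hippocampus it stood at 28.2, 28.4 and 22.4 in wildtypes, 45.4, 36.4 and 42.2 in 5xFAD PBS and 36.8, 38.2 and 41.4 in EV libraries. In both tissues every 5xFAD library was above every wildtype one, and in hippocampus the 5xFAD PBS and EV values overlapped.

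Kcnj10 encodes Kir4.1, the inward rectifier potassium channel of astrocytes. In cortex it stood at 8.15, 9.02 and 11.5 FPKM in wildtypes, 13.4, 10.7 and 18.5 in 5xFAD PBS and 11.7, 13.1 and 18.6 in EV libraries. In hippocampus it stood at 12.4, 12.6 and 10.4 in wildtypes, 11.7, 6.96 and 14.3 in 5xFAD PBS and 12, 10.7 and 10.4 in EV libraries. The cortical wildtype and EV libraries did not overlap, 5xFAD PBS overlapped both of them, and the hippocampal groups overlapped throughout.

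The first comparison asked what the 5xFAD genotype goes with in mice that had PBS. In hippocampus, Aqp4 rose from 26.3 ± 3.39 to 41.3 ± 4.61 FPKM, a log2 difference of 0.64 (SE 0.12, 95% interval 0.39 to 0.90) or 1.56-fold, with an adjusted p of 0.0117 in limma. It was the only one of the 10 genes called, where 4.59% of the 13305 genes tested in this comparison were called. The other 9 lay between -0.15 (Kcnj10) and 0.42 (Sox9) on the log2 scale, and the median of all 10 was 0.07 beside 0.02 over all genes. The groups did not overlap for 2 of the 10 genes, Aqp4 and Sox9, against 25.5% of all genes tested. In bulk tissue, a lower or higher number of astrocytes and a change in RNA per astrocyte cannot be told apart. Set against the mean of the other 9 genes in the same library, Aqp4 was at log2 values of -1.48 to -1.05 in wildtype hippocampus and -0.76 to -0.53 in 5xFAD PBS hippocampus. The other 9 had a median difference of 0.07 in these same libraries. So these ranges restate the Aqp4 difference and are no separate evidence for it or for its source. The Aqp4 call was kept in all 16 alternative analyses, including the 6 that each left out 1 library, with log2 differences of 0.53 to 0.73 and adjusted p of 0.011 to 0.048.

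In the same comparison 8 of the 9 choroid plexus markers were called higher in 5xFAD PBS hippocampus by limma and 1 by voom. Over all genes, limma called 4.59%. All 9 markers had an unadjusted p under 0.05, and their median log2 difference was 3.69. Ttr, the most abundant of them, went from 29.7, 76.5 and 159 FPKM in wildtypes to 2532, 8684 and 2697. Ependymal cells, which line the ventricles, can also carry Aqp4. Their 7 markers summed to 73.6 to 93.2 FPKM in wildtype and 76.6 to 211 in 5xFAD PBS hippocampus, and 0 of the 7 were called by limma or voom or had an unadjusted p under 0.05. The 6 meningeal fibroblast markers summed to 42.7 to 83.6 and 90.1 to 187 FPKM, with 0 called by limma or voom and 4 at an unadjusted p under 0.05. None of these markers was at 0 in all libraries of a group. Their part in the Aqp4 difference was not tested in a model. EV hippocampus library 3 had a choroid sum of 188 FPKM, close to the 169 of wildtype library 3. Its ependymal sum was 63.8, below all wildtypes. Aqp4 in that EV library was 41.4 FPKM, against 28.2, 28.4 and 22.4 in wildtype libraries 1, 2 and 3. Among the 5xFAD PBS libraries, the one with the most choroid and ependymal transcripts, library 2, had the lowest Aqp4 at 36.4 FPKM. Without it the log2 difference was 0.73 (limma adjusted p = 0.0109). Libraries 1 and 3, which remain, still had choroid sums of 2628 and 2789 FPKM, against 35.7 to 169 in wildtypes. Leaving library 2 out therefore does not remove these transcripts from the comparison. In EV cortex the order of choroid sum and Aqp4 was the other way. Library 3 there had the highest choroid sum, 866 FPKM against 13.9 and 6.93, and the highest Aqp4, 46.8 against 28.3 and 28.1.

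**Figure D2:**
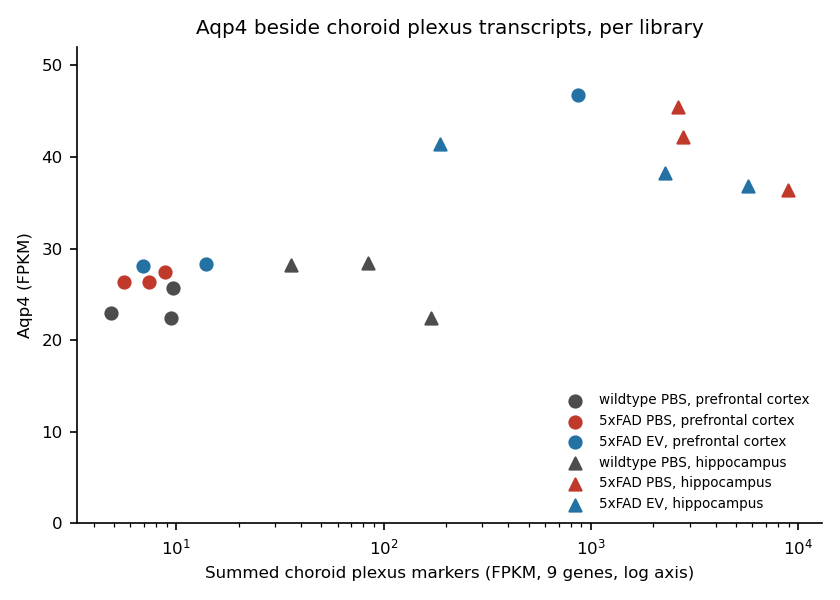
Aqp4 (FPKM, linear axis) against the summed FPKM of 9 choroid plexus markers (log axis) in each of the 18 libraries, marked by group. EV hippocampus library 3 lies at a choroid sum of 188 with Aqp4 at 41.4, beside wildtype hippocampus library 3 at 169 with Aqp4 at 22.4. EV cortex library 3 lies at 866 with Aqp4 at 46.8, the highest of all 18. The 5xFAD PBS hippocampus libraries lie at 2628 to 8930 with Aqp4 at 36.4 to 45.4.

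In prefrontal cortex, 0 of the 10 genes were called between 5xFAD PBS and wildtype in limma, where 1.96% of 13055 genes were called, and voom on the recovered reads also called 0 of the 10. Kcnj10 alone had an unadjusted p under 0.05, with a log2 difference of 0.53 (SE 0.22, 95% interval 0.05 to 1.0) and an adjusted p of 0.527 in limma. Aqp4 did not overlap between the groups, the only such gene of the 10 against 14.7% of all genes, yet its difference was small, at 0.17 (95% interval -0.20 to 0.54, limma adjusted p = 0.998). The median of the 10 was 0.01 beside 0.02 over all genes. The difference of the genotype effect between the tissues was 0.47 for Aqp4 (SE 0.22, 95% interval 0.01 to 0.93), with an adjusted p of 0.829 in limma. For Kcnj10 it was -0.68 (SE 0.33, -1.37 to 0.02, adjusted p = 0.864). In this test 0% of 13574 genes passed, 0 of the 10 among them, and voom also called 0, while 5.8% of all genes and Aqp4 alone of the 10 had an unadjusted p under 0.05. So the Aqp4 effect was called in hippocampus and not in cortex, but was not shown to differ between them.

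The second comparison asked whether EV treatment moved these genes in 5xFAD mice. limma called 0 of the 10 in either tissue, and 0% of 13055 genes in cortex and of 13305 in hippocampus, and voom called 0 genes as well. Unadjusted p-values under 0.05 were found for 4.72% of all genes in cortex, with Slc1a3 as the only one of the 10, and for 3.9% in hippocampus, with none of the 10. In hippocampus the differences of EV from PBS ran from -0.41 for Gjb6 (SE 0.20, 95% interval -0.86 to 0.03, limma adjusted p = 0.867) to 0.19 for Slc1a2 (SE 0.13, -0.10 to 0.49, adjusted p = 0.867). Aqp4 differed by -0.09 (95% interval -0.34 to 0.17). The groups overlapped for all 10 genes, against 7.51% of all genes without overlap. EV library 3 stood apart from the other EV libraries in Gjb6, Ndrg2, Glul and Aldh1l1: Aldh1l1 was at 14.9, 14.7 and 22.6 FPKM. EV library 3 also had the fewest reads of all 18 libraries, 26437852, and the part of depth in its values was not tested. Without that library the log2 differences were -0.67 for Gjb6, -0.46 for Ndrg2, -0.37 for Aldh1l1 and -0.36 for Glul, each with a limma adjusted p of 0.399. Intervals of this width leave room for changes of up to 0.86 downward (Gjb6) and 0.53 upward (Kcnj10) on the log2 scale, so these data do not show that EV treatment left the genes as they were.

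In cortex the EV differences from PBS ran from -0.07 (Glul) to 0.32 (Aqp4), with a median of 0.07 beside 0.02 over all genes. The Aqp4 groups did not overlap, the only such gene of the 10 against 10.6% of all genes, with a difference of 0.32 (SE 0.17, 95% interval -0.05 to 0.69, limma adjusted p = 0.822). EV library 3 carried most of it: at 46.8 FPKM it was the highest of all 18 libraries, and without it the difference was 0.08. That library also held 836 FPKM of Ttr, against 11.6 and 3.08 in the other EV cortex libraries, and the highest ependymal sum of the 9 cortex libraries, at 61.3 FPKM. The part of other cell types in its Aqp4 value was not tested. The change of the EV effect between tissues was called for 0 of the 10 genes and 0% of 13574 by limma and for 0 by voom, with 5.01% of all genes at an unadjusted p under 0.05. Its largest values were -0.53 for Gjb6 (95% interval -1.13 to 0.07) and -0.40 for Aqp4 (-0.86 to 0.06), both with a limma adjusted p of 0.995. Leaving out 1 library moved them to between -0.79 and -0.33 for Gjb6 and between -0.53 and -0.16 for Aqp4, the last without EV cortex library 3.

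EV-treated 5xFAD mice were also set against wildtypes, with the same wildtype libraries as before. In hippocampus Aqp4 was the only gene of the 10 called, where 2.1% of 13305 genes were: it was at 38.8 ± 2.37 FPKM in EV mice, a log2 difference of 0.56 (SE 0.12, 95% interval 0.30 to 0.82) or 1.47-fold, with a limma adjusted p of 0.0388. Aqp4 was also the only one of the 10 whose groups did not overlap, against 18.6% of all genes. This call was kept in 5 of 16 alternatives and in 0 of the 6 that left out 1 library, where adjusted p ran from 0.0691 to 0.116 and the log2 difference from 0.45 to 0.62. In this contrast 0 of the 9 choroid plexus markers were called by limma or voom, but all 9 had an unadjusted p under 0.05, with a median log2 difference of 2.66. Their part in the Aqp4 difference was not tested, and without EV library 3, the one with few choroid transcripts, Aqp4 differed by 0.51. In cortex 0 of the 10 were called in limma and in voom, where 1.52% of 13055 genes were called in limma. Aqp4 differed by 0.49 (SE 0.17, 95% interval 0.12 to 0.86, adjusted p = 0.22) and Kcnj10 by 0.56 (SE 0.22, 0.08 to 1.04, adjusted p = 0.275), the only genes of the 10 with an unadjusted p under 0.05. These were also the 2 of 10 whose groups did not overlap, against 19.3% of all genes. Without EV library 3 the cortical differences were 0.25 for Aqp4 and 0.37 for Kcnj10.

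**Figure D3:**
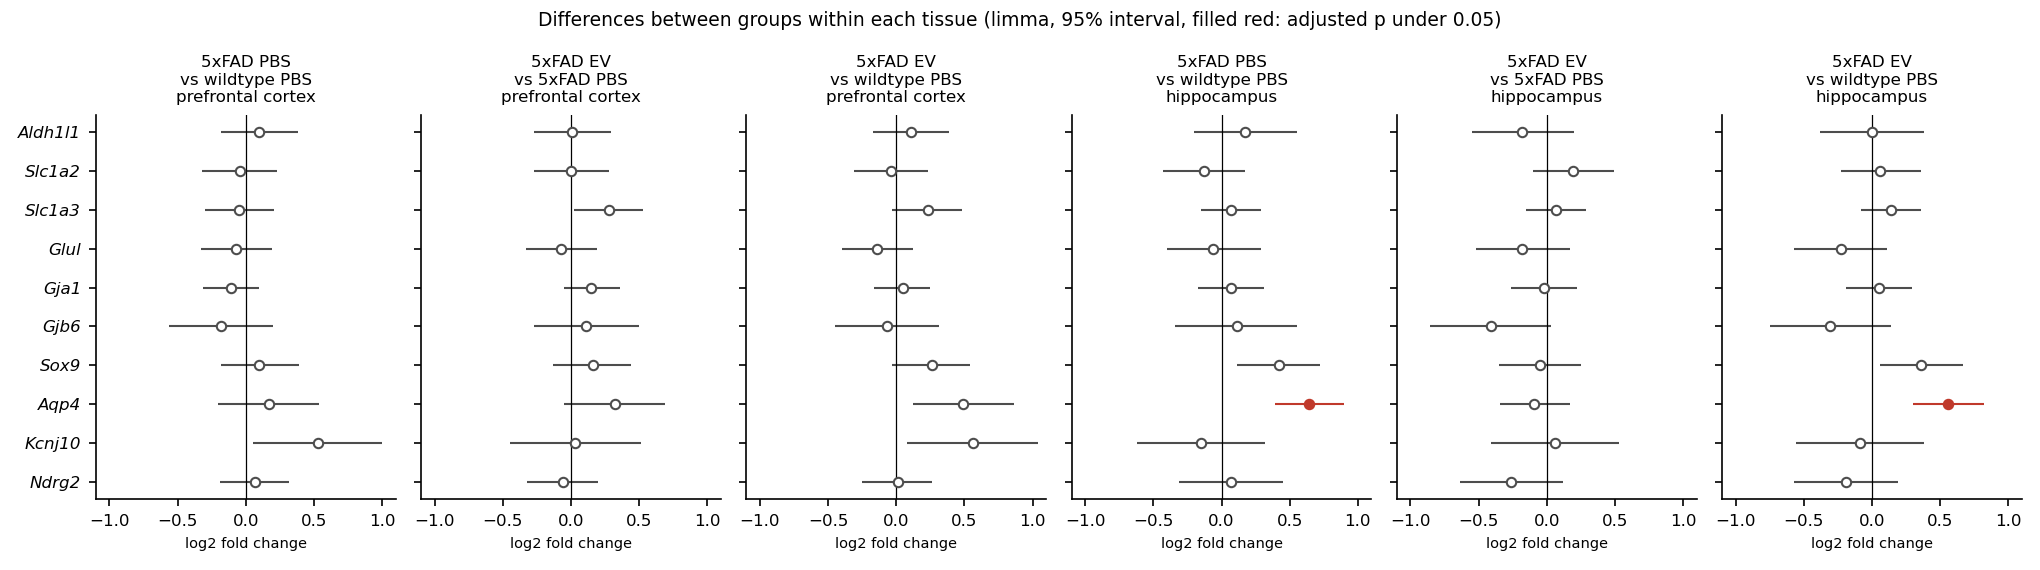
log2 differences between groups for the 10 genes in prefrontal cortex and hippocampus (horizontal axis, log2 fold change; bars, 95% intervals from limma; filled red, adjusted p under 0.05). The filled points are Aqp4 in hippocampus, at 0.64 for 5xFAD PBS and 0.56 for EV against wildtype.

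Between tissues, the 10 genes were compared within each treatment. In 5xFAD PBS mice 4 of the 10 were higher in hippocampus and 0 lower, where 25.1% of 13574 genes were called in either direction and 15.3% higher. Gja1 went from 62.5 ± 3.87 FPKM in cortex to 86.8 ± 4.21 in hippocampus, a log2 difference of 0.47 (SE 0.10, 95% interval 0.26 to 0.69, limma adjusted p = 0.00271). Aqp4 differed by 0.62 (SE 0.15, 0.29 to 0.94, adjusted p = 0.00791), Sox9 by 0.46 (SE 0.13, 0.17 to 0.75, adjusted p = 0.0201) and Gjb6 by 0.57 (SE 0.20, 0.14 to 0.99, adjusted p = 0.0485). The tissues did not overlap for 6 of the 10, these 4 with Slc1a3 and Ndrg2, against 42.8% of all genes. The calls of Gja1 and Aqp4 were kept in all 16 alternatives. Sox9 was lost without cortex library 1 (adjusted p = 0.0931) or hippocampus library 2 (0.0845), and was kept in 14 of 16. Gjb6 was kept in 7 of 16 alternatives and in 1 of the 6 that left out a library, where adjusted p reached 0.244 without cortex library 1, and was lost with no filter (0.0742), quantile (0.0513) or upper quartile scaling (0.0535) and no trend (0.0563).

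In wildtypes limma called 0 of the 10, where 15.9% of all genes were called, and voom called 0 of them. Gja1 had the smallest adjusted p at 0.0532 (log2 difference 0.30, SE 0.10), and with Ndrg2 (0.34, SE 0.15, adjusted p = 0.150) was the only one with an unadjusted p under 0.05. Gja1 was the only one of the 10 without overlap, against 33.8% of all genes. In EV mice limma and voom also called 0 of the 10, where limma called 16.9% of all genes. Gja1 was again the closest, at 0.30 (SE 0.10, 95% interval 0.09 to 0.51, limma adjusted p = 0.0502), the only one with an unadjusted p under 0.05 and the only one without overlap, against 30.9% of all genes. Aqp4 differed by 0.21 (SE 0.15) with an adjusted p of 0.404, and by 0.45 (adjusted p = 0.00996) without the EV cortex library 3 that held 46.8 FPKM. That more of the 10 were called in PBS-treated 5xFAD mice than in the other groups does not show that the tissue difference changed, since the test of that change called none of them.

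Other cell types also differ between the dissected tissues. Over all genes, limma called 15.9%, 25.1% and 16.9% in either direction in wildtype, 5xFAD PBS and EV mice, beside which the counts here stand. In 5xFAD PBS mice limma called 9 of 9 choroid plexus and 6 of 7 ependymal markers higher in hippocampus, and 7 of 9 neuron markers lower (voom 8, 5 and 7 genes). In wildtypes the limma counts were 1 of 9, 6 of 7 and 3 of 9 (voom 0, 4 and 3), and in EV mice 4 of 9, 5 of 7 and 5 of 9, with 1 neuron marker higher (voom 2 and 4, and 6 neuron markers in all). Oligodendrocyte markers were higher in hippocampus for 6 of 7 in each treatment by both tools, with medians of 0.71, 0.51 and 0.48 in wildtype, 5xFAD PBS and EV mice. Of 15 reactive astrocyte genes, limma called 3, 11 and 6 higher in hippocampus in wildtype, 5xFAD PBS and EV mice (voom 3, 10 and 5). Ependymal sums were 34.2 to 61.3 FPKM over the 9 cortex libraries and 63.8 to 211 over the 9 hippocampus libraries. The part of these cells and genes in the tissue differences of Gja1, Gjb6, Sox9 and Aqp4 was not tested. Without hippocampus library 2, the one with the highest choroid and ependymal sums, Gja1 differed by 0.51 and Aqp4 by 0.70 in the 5xFAD PBS mice and both were still called, while Sox9 (0.41, limma adjusted p = 0.0845) and Gjb6 (0.49, adjusted p = 0.169) were not. The hippocampus libraries left still had choroid sums of 2628 and 2789 FPKM, against 5.59 to 8.88 in 5xFAD PBS cortex.

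**Figure D4:**
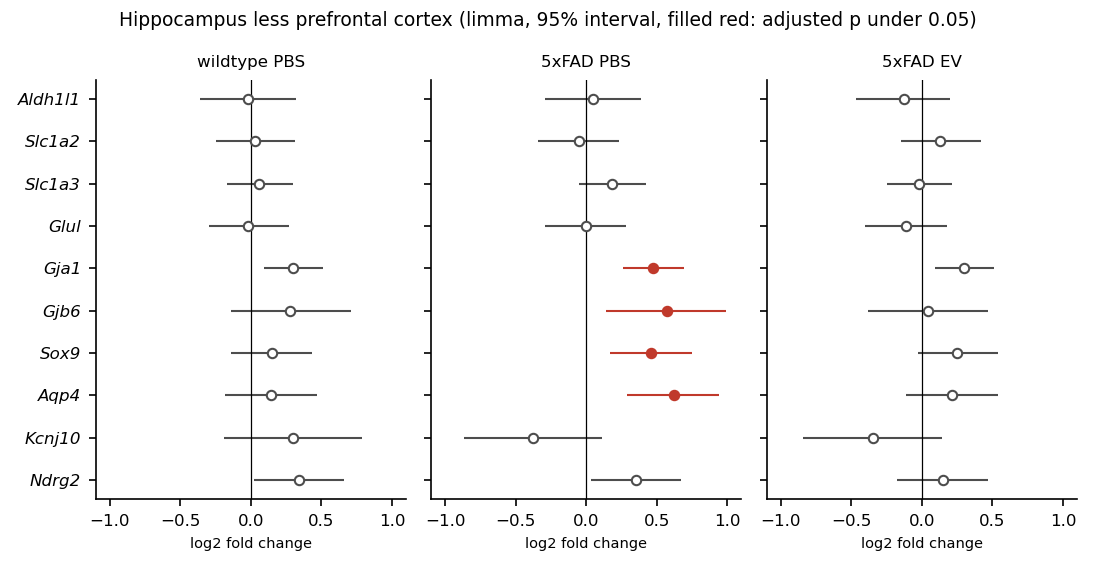
log2 difference of hippocampus from prefrontal cortex for the 10 genes in wildtype PBS, 5xFAD PBS and 5xFAD EV mice (horizontal axis, log2 fold change; bars, 95% intervals from limma; filled red, adjusted p under 0.05). Gja1 lies at 0.30, 0.47 and 0.30 in the 3 panels, and the filled points are Gja1, Gjb6, Sox9 and Aqp4 in 5xFAD PBS mice.

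Further genes of the same pathways were read from lists, whose members, like the 10, were chosen with results of these data known. Of 18 partners in glutamate, glutamine and potassium handling, 0 passed the test in limma or voom in any of the 6 comparisons within a tissue, and between 0 and 4 had an unadjusted p under 0.05. Slc38a3, the transporter that exports glutamine from astrocytes, had a log2 difference of 0.63 (SE 0.21) between 5xFAD PBS and wildtype hippocampus with a limma adjusted p of 0.14, and Kcnj16, which forms channels with Kcnj10, had 0.12 (SE 0.14, adjusted p = 0.69). Between tissues in 5xFAD PBS mice, 4 of the 18 were higher in hippocampus and 1 lower, a share close to the 25.1% of all genes called. Among the higher ones were Slc12a2 (0.79), a sodium, potassium and chloride cotransporter, Slc16a1 (0.43), a lactate transporter, and Slc1a1 (0.31), the neuronal glutamate transporter. Slc1a1 was also higher in hippocampus of wildtypes (0.44) and EV mice (0.59). In EV mice the glutamine transporters Slc38a1 (-0.51) and Slc38a2 (-0.47) were lower in hippocampus.

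The dystrophin complex holds Aqp4 at the endfoot membrane. Of its 6 genes tested, 0 passed within a tissue in limma or voom, with at most 1 at an unadjusted p under 0.05 in a comparison. In hippocampus, where Aqp4 rose in 5xFAD PBS mice, Dag1, which encodes dystroglycan, differed by -0.05 (SE 0.12, limma adjusted p = 0.87) and the syntrophin gene Sntb1 by 0.89 (SE 0.25, adjusted p = 0.083). Sntb1 was low, at 0.951 to 1.19 FPKM in wildtype and 2.29 to 2.71 in 5xFAD PBS hippocampus. In EV hippocampus libraries 1, 2 and 3 it was at 2.33, 1.73 and 0.77 FPKM, where the choroid sums were 5722, 2279 and 188. The part of choroid plexus in the Sntb1 differences given here was not tested. Between tissues in 5xFAD PBS mice, 2 of the 6 were called higher in hippocampus and 1 lower, where 25.1% of all genes were called. Sntb1 (1.40) was among the higher ones, and Utrn (-0.59), the dystrophin relative utrophin, was lower. Utrn was also lower in EV mice (-0.64), where 16.9% of all genes were called. Of 6 other brain connexins tested, 0 passed within a tissue in limma or voom, with at most 2 at an unadjusted p under 0.05 in a comparison. Gjb2, another astrocyte and meningeal connexin, differed by 0.73 (SE 0.37, adjusted p = 0.33) between 5xFAD PBS and wildtype hippocampus. Between tissues, 1 of the 6 connexins was called higher in 5xFAD PBS hippocampus, and Gjc1 was higher there (0.37). In wildtypes 1 of the 6 was also called higher, where 15.9% of all genes were called.

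Of 25 other astrocyte markers, 2 rose in 5xFAD PBS hippocampus over wildtype and 0 fell in limma, where 4.59% of all genes were called, with a median of -0.01 over the 25. voom called 1 of the 25. The zinc transporter gene Slc39a12 went from 17.3, 19.0 and 20.0 FPKM to 24.3, 28.8 and 26.2, a log2 difference of 0.48 (limma adjusted p = 0.03). Slc7a10, an amino acid transporter gene, went from 7.78, 8.80 and 9.47 FPKM to 14.3, 17.6 and 12.2, a difference of 0.72 (adjusted p = 0.048). In cortex 0 of the 25 passed in this comparison in limma or voom and 0 had an unadjusted p under 0.05, with a median of -0.06. None of the 25 passed between EV and PBS or between EV and wildtype in either tissue by either tool, and 1 to 3 had an unadjusted p under 0.05.

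Between tissues, this wider list held genes of both directions. In wildtypes 6 of the 25 were higher and 3 lower in hippocampus, in 5xFAD PBS mice 9 and 3, and in EV mice 5 and 4 (voom 8, 12 and 9 in all), where 15.9%, 25.1% and 16.9% of all genes were called. Chrdl1, a secreted synapse regulator of cortical astrocytes, was lower in hippocampus by log2 values of -1.76, -1.67 and -1.67 in wildtype, 5xFAD PBS and EV mice. Dio2, which activates thyroid hormone, was lower by -0.87, -0.84 and -0.73, and the glutamate receptor gene Grm3 by -0.60, -0.88 and -0.65. The glycine-cleaving enzyme Gldc was higher in hippocampus by 0.43, 0.49 and 0.38. Agt, angiotensinogen, was higher by 2.42 in wildtypes and 2.78 in 5xFAD PBS mice, and differed by 0.98 (limma adjusted p = 0.16) in EV mice, where cortex library 3 held 16.3 FPKM against 2.91 and 4.27 in the others.

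Reactive astrocyte genes were mostly above wildtype in 5xFAD PBS mice, though few passed the test over all genes: 13 of 14 tested differences were positive in cortex (median 0.35, 8 at an unadjusted p under 0.05) and 14 of 15 in hippocampus (median 0.77, 14 at an unadjusted p under 0.05). In cortex 3 of 14 rose in 5xFAD PBS mice: Gfap, the intermediate filament of reactive astrocytes, by 1.94 on the log2 scale (SE 0.17, limma adjusted p = 0.00027), the serpin Serpina3n by 1.08 and the cytokine receptor Osmr by 0.67. In hippocampus 3 of 15 rose, Gfap by 1.66 (SE 0.16, adjusted p = 0.00075), Serpina3n by 1.11 and the adhesion receptor Cd44 by 0.74. Gfap stood at 115, 135 and 139 FPKM in wildtype hippocampus, 480, 404 and 354 in 5xFAD PBS and 317, 334 and 445 in EV libraries. Microglia markers also rose with the genotype, 7 of 8 in each tissue. Over all genes, limma called 1.96% in cortex and 4.59% in hippocampus between 5xFAD PBS mice and wildtypes. Between EV and PBS, 0 reactive and 0 microglia genes of these lists passed in limma or voom, with 2 and 1 at an unadjusted p under 0.05 in cortex and 3 and 0 in hippocampus.

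Within groups, the 10 genes were compared library by library as deviations from the group mean over 18 libraries. These correlations are descriptions: the genes share libraries, depth and scaling. Of 45 pairs, 33 were positive, with a median of 0.33 and a range from -0.40 (Slc1a2 with Sox9) to 0.93 (Aldh1l1 with Ndrg2). Aldh1l1, Ndrg2, Gjb6, Glul and Gja1 went up and down together, with 0.88 for Gjb6 and Ndrg2 and 0.83 for both Glul with Ndrg2 and Aldh1l1 with Gja1. Each of these genes had its largest deviation in EV hippocampus library 3, at 0.40, 0.39, 0.52, 0.36 and 0.23 in the order named. The correlations without that library were not computed. Slc1a2 did not follow the mean profile of the 10 (-0.04), Kcnj10 and Aqp4 followed it in part (0.30 and 0.52), and Gja1 followed it most (0.95). This profile contains each of the 10 genes, which raises their values. They cannot be compared with those of genes outside the 10.

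The library's total FPKM moved with some of the 10 genes. The deviations of Glul, Ndrg2, Gjb6 and Aldh1l1 correlated with the library's total FPKM at 0.82, 0.80, 0.76 and 0.74, those of Gja1, Sox9 and Slc1a3 at 0.47, 0.32 and 0.04, and those of Aqp4, Slc1a2 and Kcnj10 at -0.27, -0.55 and -0.60. The total of FPKM depends on how reads spread over short and long genes. Slc1a2 is 4.21 times the median gene length, Slc1a3 2.07 times and Aqp4 1.87 times, whereas Glul, Ndrg2, Gjb6, Gja1 and Aldh1l1 are between 0.873 and 1.02 times, and Kcnj10, at 1.07, does not follow this order. Its part in the correlations was not tested. Among 11907 other genes with a mean of at least 1 FPKM, those most like the mean profile of the 10 over the 18 libraries included Sfxn5 (r of 0.95), Lyn (0.92), Fam107a (0.91) and Jam2 (0.90).

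**Figure D5:**
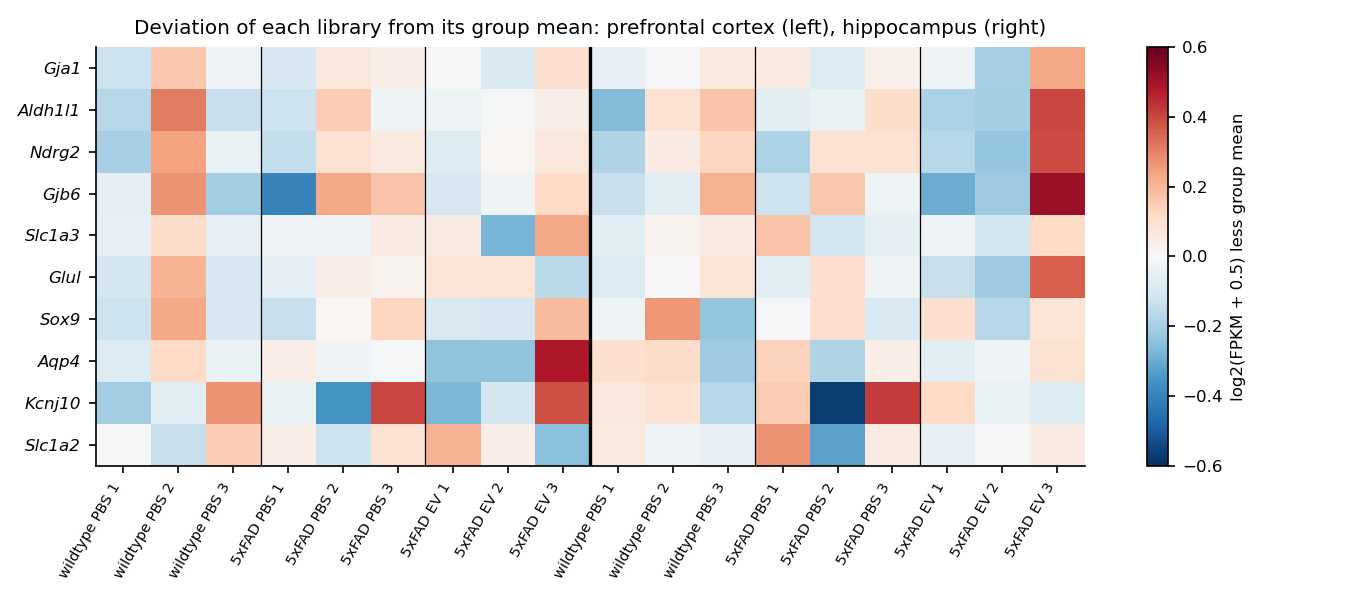
Deviation of log2(FPKM + 0.5) from the group mean (colour) for the 10 genes (rows) in the 18 libraries (columns; prefrontal cortex left, hippocampus right). Deviations of Aldh1l1, Ndrg2, Gjb6 and Glul share their sign in EV hippocampus library 3, where Ndrg2 reached 346 FPKM, and Aqp4 stands out in EV cortex library 3 at 46.8 FPKM.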

How the data were processed

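The deposited values are FPKM per gene, made by the authors; the submitters' processing notes name fastp, HISAT2, HTSeq and GRCm39, with versions, roles, gene lengths and strand use not given in the sources used here. FPKM was tested as log2(FPKM + 0.5) with limma 3.58.1 (trend, eBayes, two-sided, R 4.3.3), keeping genes that reached 0.5 FPKM in 3 or more of the libraries fitted, using 9 libraries within a tissue and all 18 between tissues. Fold changes are on that scale. Benjamini-Hochberg adjustment ran over every gene tested, with 0.05 as the threshold for a call. Values were whole multiples of a step for 100% of 18683 genes (relative tolerance 1e-06), which gave reads per gene for voom. The code was tested on simulated data. Groups came from sample titles.

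The 10 genes and all lists were chosen with earlier results of these data known. Named were the 10 in every comparison, up to 4 called genes per list and comparison, markers needed for a cell type's level, and the 5 genes most like the 10; list genes that were not called (Slc38a3, Kcnj16, Dag1, Sntb1, Gjb2) were picked for their known link to the 10 after their values were seen. A few genes chosen by this rule are not reported here. Libraries with the same number deviated together in every pair only for 5xFAD PBS and wildtype cortex (r of 0.20, 0.48 and 0.16), from the values and not the labels. Alternatives were other pseudocounts, filters, scalings, voom, fits on only the groups compared, no trend, a replicate block and each library left out.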

Additional observations from a re-analysis of the deposited data

How the results depend on the processing

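For the 10 genes, 1847 of 1880 alternative values stayed on their side of the threshold, 22 lost a call, 11 gained one and 0 reversed a call. The sign differed from the main analysis in 105 of the 1880, none of them a called value. Of the 376 counts, 326 stayed within 1.5 times. The EV call against wildtype in hippocampus (Aqp4) went from 1 to 0 genes of the 10 with no filter, quantile normalization, only the groups compared, no trend, or the replicate block (adjusted p of 0.0934, 0.0596, 0.0508, 0.0573 and 0.0913). Tissue calls among the 10 went from 0 to 2 (quantile) or 1 (block) in wildtypes, and from 0 to 1 in EV mice (quantile, upper quartile, block). With at least 1 FPKM in every library, fewer genes were called overall: 135 of 256 and 332 of 611 for 5xFAD PBS against wildtype in cortex and hippocampus, and 117 of 198 and 154 of 280 for EV against wildtype. EV against wildtype in cortex gave 125 with quantile normalization and 118 on only the groups compared, which also gave 1275 in place of 2297 between tissues in EV mice and 42 in place of 0 for the genotype effect between tissues. No filter gave 1 in place of 0 for the EV effect between tissues. Leaving out 1 library at a time, the genes called ranged from 142 to 218 and from 320 to 446 for 5xFAD PBS against wildtype (cortex, hippocampus), from 89 to 229 and from 159 to 278 for EV against wildtype, from 0 to 1 in each tissue for EV against PBS, and between tissues from 1476 to 2178 in wildtypes, 2140 to 3320 in 5xFAD PBS and 1626 to 2155 in EV mice; the differences between tissues stayed at 0 to 0. Among the 10 genes these ranges were 1 to 1 for 5xFAD PBS against wildtype in hippocampus, 0 to 0 for EV against wildtype there, and between tissues 0 to 1, 2 to 4 and 0 to 2. The cause of these moves was not tested, except that fewer genes or samples enter some alternatives by construction. Nothing in the labels says that libraries of the same number are pairs. For 5xFAD PBS against wildtype in cortex, where such libraries deviated together, the replicate block called 218 genes and 0 of the 10. Kcnj10 had a limma adjusted p of 0.0611 there. In the others libraries share only a number; there the block also called Ndrg2 between tissues in 5xFAD PBS mice (0.0428), and changed no call not given here. Each of the 10 genes had at least 714 reads in every library; how read depth and spread between libraries share in the error was not tested.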
